A study of Mus musculus with 2 samples.

Results

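The 10 genes described here belong to the BCL2 family, which sets whether a cell commits to death through its mitochondria. They were chosen by name: 3 pro-survival genes (Bcl2, Bcl2l1 and Mcl1) and 7 pro-death genes, of which 5 are BH3-only (Bcl2l11, Bmf, Bbc3, Pmaip1 and Bid) and 2 are effectors (Bax and Bak1). All 10 were found among the 16881 RefSeq transcripts of the deposited table, 1 transcript each, and all 10 had a mean of 1 CPM or more (counts scaled to the size of the library) over both libraries, as did 12135 transcripts in all. RNA was sequenced from 1 culture of p65-/- and 1 culture of p65+/+ immortalised mouse embryonic fibroblasts (MEFs), both of the C57BL/6 strain. p65 is the NF-kB subunit encoded by Rela, the labels say nothing of how the null allele was made, and they name no treatment. Each genotype had 1 library and the labels do not say how many embryos or clones it came from. No difference therefore has a replicate check, no p-value is given, and genotype cannot be told apart from any other difference between the cultures.

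Fragments recovered from the deposited values, summed over the listed transcripts, came to 15441394 in the p65-null library and 20794476 in the wild-type library. Rela was at 13.1 CPM in the p65-null library and 90.5 CPM in the wild-type library, 6.90-fold lower (95% counting interval 5.96 to 8.03). The p65-null library had 3 fragments of the tumour suppressor gene Cdkn2a and 2 of Xist, the RNA of the inactive X chromosome, and the wild-type library had 1693.5 and 956, so the cultures differed in more than p65. All 10 fibroblast markers looked up were measured, with summed levels of 23249 CPM in the p65-null library and 11994 CPM in the wild-type library. Col1a1 and Col1a2 made up most of the p65-null sum, and the markers did not move together: Lum was 23.2-fold higher in p65-null cells (9.56 to 73.4), whereas Thy1 was 8.60-fold, Dcn 1.61-fold and Pdgfrb 1.33-fold lower. Epithelial markers summed to 2.61 and 0.118 CPM, endothelial markers to 2.18 and 3.40 CPM and haematopoietic markers to 4.49 and 1.56 CPM in the p65-null and wild-type libraries. Among the markers of those other cell types, Cdh5 and Ptprc were at 0 in the p65-null library. Epcam, Cdh1, Krt18 and Tek were at 0 in the wild-type library, but Krt18 had 23 fragments and Cdh1 had 11 in the p65-null library. Cd68 was at 4.06 CPM in the p65-null library and 1.37 CPM in the wild-type library, and Kdr at 1.91 and 3.26 CPM. The part of these markers in the results was not tested.

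Pro-survival members such as BCL2, BCL-XL (from Bcl2l1) and MCL1 hold the effectors BAX and BAK in check on the outer mitochondrial membrane. BH3-only proteins sense stress and either occupy the pro-survival proteins or activate the effectors directly, and the effectors then open the membrane and release cytochrome c. NF-kB is known to induce survival genes, Bcl2l1 among them, in several cell types, while Bax, Bbc3 and Pmaip1 are known targets of the tumour suppressor p53.

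The promoters of these genes were searched because the cultures differ in an NF-kB subunit, but the data hold RNA levels only. RefSeq promoter windows, each 250 bases before to 50 bases after a start site, were given for 9 of the 10 members, 16 windows in all. The member without a window was Pmaip1. Both strands were searched for the 10-base NF-kB consensus, which held in 8.46% of the 32851 windows of all genes, in 10.6% of the 12306 windows of measured genes and in 3 of the 16 member windows. The sequences below are the 250 bases before the start site nearest to that of the deposited transcript, from RefSeq on GRCm38.p6, 5′ to 3′ along the gene. Among the members with a window, Bcl2 and Bmf are shown for the size of their differences in RNA. Bcl2l1 and Bbc3 are shown because their stretches hold a match, and capitals mark the NF-kB consensus.
Bcl2, chr1:106714291-106714540, minus strand: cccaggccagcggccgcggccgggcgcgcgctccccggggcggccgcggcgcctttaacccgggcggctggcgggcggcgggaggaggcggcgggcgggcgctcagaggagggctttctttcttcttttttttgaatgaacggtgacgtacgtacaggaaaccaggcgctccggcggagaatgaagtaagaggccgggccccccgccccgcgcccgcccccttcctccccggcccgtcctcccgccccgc
Bmf, chr2:118549687-118549936, minus strand: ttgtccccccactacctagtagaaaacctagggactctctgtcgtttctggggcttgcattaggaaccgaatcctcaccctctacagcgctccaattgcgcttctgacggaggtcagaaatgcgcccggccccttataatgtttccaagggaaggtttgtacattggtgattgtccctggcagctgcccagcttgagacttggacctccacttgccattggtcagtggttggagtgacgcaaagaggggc
Bcl2l1, chr2:152830718-152830967, minus strand: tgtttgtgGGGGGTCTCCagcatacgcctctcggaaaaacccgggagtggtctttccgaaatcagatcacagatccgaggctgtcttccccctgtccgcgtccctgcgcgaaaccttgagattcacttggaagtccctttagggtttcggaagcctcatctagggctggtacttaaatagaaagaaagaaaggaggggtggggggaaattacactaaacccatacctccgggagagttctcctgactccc
Bbc3, chr7:16309333-16309582, plus strand: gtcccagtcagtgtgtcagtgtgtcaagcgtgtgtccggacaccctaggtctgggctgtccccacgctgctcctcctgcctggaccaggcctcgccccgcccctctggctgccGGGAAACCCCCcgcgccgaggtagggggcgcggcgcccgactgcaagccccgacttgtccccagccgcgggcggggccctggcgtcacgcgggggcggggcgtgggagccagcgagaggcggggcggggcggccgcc
Bcl2l1 had 1 match, from -242 to -233 counted from the start site, and Bbc3 had 2 overlapping matches, from -137 to -128 and from -136 to -127. The stretches of Bcl2 and Bmf held none. The third window with a match belonged to another start site of Bmf, where it lay at 1 to 10 after the start. A p53 half-site consensus, found in 8.36% of all windows and 6.83% of those of measured genes, stood at -201 to -192 in the window of Bax and at -213 to -204 in that same other window of Bmf. A FOXO site (GTAAACA), found in 3.65% of all windows and 2.5% of those of measured genes, stood at -227 to -221 in a window of Bcl2l11 and at -167 to -161 in a window of Bbc3, and an AP-1 site (TGANTCA; 7.81% of all windows and 5.12% of those of measured genes) in 0 of the 16. A match describes the letters only and shows no binding.

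Among the 10 members, 1 gene, Bmf, was higher by 2-fold or more in p65-null cells, as were 12.2% of the 12135 measured genes, and 2 genes, Bcl2 and Pmaip1, were lower by 2-fold or more, as were 13.7%. The other 7 lay within 2-fold. Before the correction for GC content and length described below, which has no interval, the whole counting interval of Bmf, Bcl2 and Pmaip1 lay past 2-fold. So it did for 7.95% of measured genes on the higher side and 9.1% on the lower side. Read against those shares, the counts are no result about the list, and what follows concerns single members. The median log2 ratio was -0.01 over the members and -0.03 over all measured genes. Ratios are p65-null over wild-type, scaled with TMM, the trimmed mean of M values, and intervals hold counting error alone. Across genes the log2 ratio followed the GC content of the transcript (Spearman 0.43 over 12059 genes, which are not independent replicates). Across the 10 members, which share the same libraries, it was 0.75, so ratios corrected for GC content and length are given beside most members. After the correction the Spearman value was -0.03 over all those genes but 0.53 across the members. The corrected ratios of the members are thus not free of the trend with GC content. The correction fitted GC content first and then length on what remained. Only the final ratio is given, so what each adds was not separated.

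**Figure D1:**
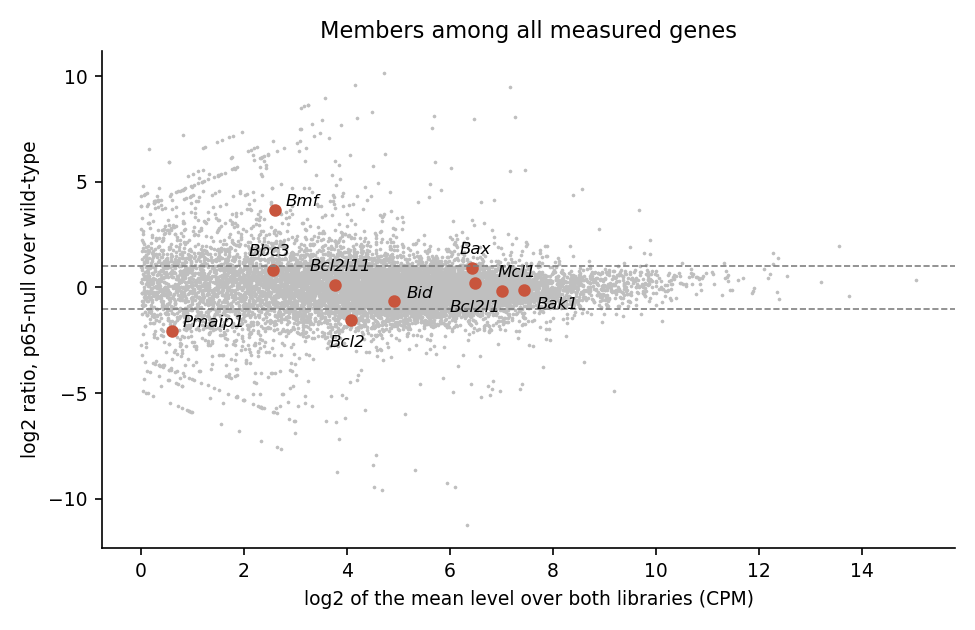
Each grey point is 1 of the 12135 measured genes and each red point 1 of the 10 members, with the log2 of the mean level over both libraries (CPM) on the horizontal axis and the log2 ratio, p65-null over wild-type, on the vertical axis; dashed lines mark 2-fold. Bmf lies above the upper line at 3.65 and Bcl2 and Pmaip1 below the lower line at -1.55 and -2.05.

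Of the pro-survival genes, Bcl2 was lower in the p65-null library, while Bcl2l1 and Mcl1 were within 1.5-fold. Bcl2 (NM_009741, chromosome 1, 106538176 to 106714290 on GRCm38, the assembly also called mm10) encodes the founding member of the family. It had 130 fragments, or 8.58 CPM, in the p65-null library, against 532.5 fragments, or 25.1 CPM, in the wild-type library. In a bulk library, fewer cells with a transcript and less of it per cell cannot be told apart. Bcl2 was 2.93-fold lower (2.41 to 3.57), or 2.23-fold lower after the GC and length correction, its transcript having a GC content of 46.3%. The lowest log2 ratio under any scaling tried was -1.96 and the highest -1.44. Only 6.25% of measured genes had a lower log2 ratio.

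Bcl2l1 (NM_001289716, chromosome 2, 152758732 to 152833803), the gene of BCL-XL, had 1442.5 fragments and 95.2 CPM in the p65-null library and 1763.5 fragments and 83.2 CPM in the wild-type library. Its ratio was 1.14 (1.07 to 1.23), a log2 ratio of 0.19, which turned to -0.17 after the GC and length correction and to -0.21 under ribosomal protein scaling, so its direction was not settled. Mcl1 (NM_008562, chromosome 3, 95656944 to 95663179), whose protein is short-lived, had 1833.5 fragments and 121 CPM in the p65-null library and 2902.5 fragments and 137 CPM in the wild-type library. Its log2 ratio was -0.18 (-0.26 to -0.09) and stayed below 0 under the 7 scaling, depth, prior count and GC alternatives tried. The levels of these 2 more abundant pro-survival genes thus differed little between the libraries.

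Bcl2 was also the least abundant of the 3 per length. Per kilobase of transcript (FPKM, the CPM divided by the length), it stood at 1.19 in the p65-null library and 3.49 in the wild-type library, Bcl2l1 at 37.1 and 32.4, and Mcl1 at 35.4 and 40.1. Its share of the summed pro-survival FPKM was 1.62% in the p65-null library and 4.60% in the wild-type library. Bcl2l1 made up 50.3% and 42.7% and Mcl1 48.1% and 52.7% of that sum in the p65-null and wild-type libraries.

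**Figure D2:**
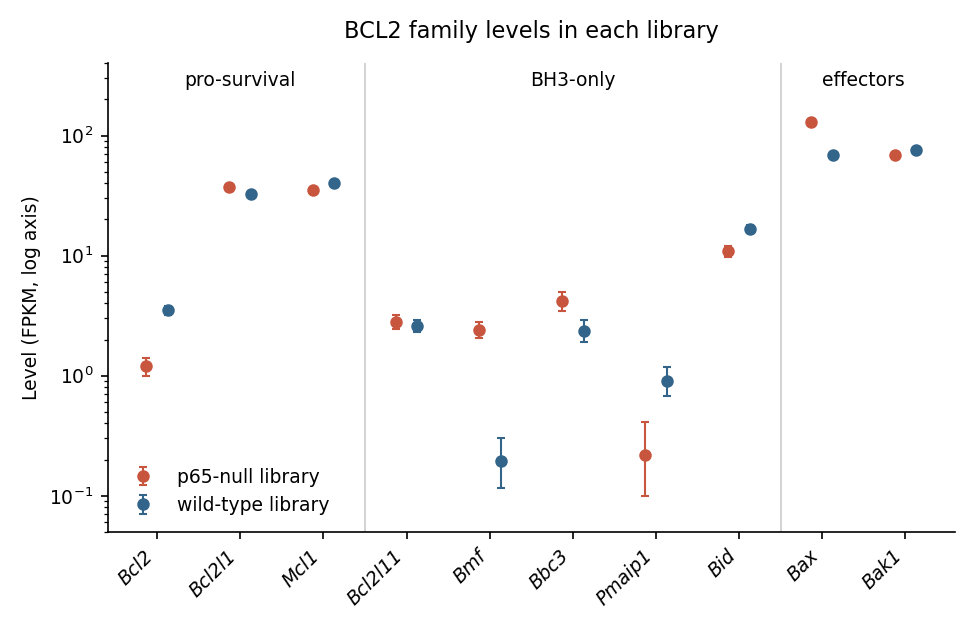
Points give the level of each member in the p65-null library (red, left) and the wild-type library (blue, right) in FPKM on a log axis, with exact Poisson intervals (95%, counting error of 1 library). Bax, Bak1, Bcl2l1 and Mcl1 lie between 32.4 and 129 FPKM in both libraries, while Bmf is under 1 FPKM in the wild-type library and Pmaip1 in both.

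The BH3-only genes went in opposite directions. Bmf, whose protein is held on the myosin V motor complex through the light chain DYNLL2, was the member with the largest difference. Bmf (NM_138313, chromosome 2, 118528757 to 118549686) had 170.5 fragments and 11.3 CPM in the p65-null library, and 19 fragments and 0.896 CPM in the wild-type library. It was 12.6-fold above wild-type (7.80 to 21.4), a log2 ratio of 3.65 (2.96 to 4.42) above that of 98.3% of measured genes. The log2 ratio was 3.49 after the GC and length correction and between 3.24 and 3.76 under every scaling tried.

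Pmaip1, the gene of NOXA, which binds MCL1, went the other way. Pmaip1 (NM_021451, chromosome 18, 66458604 to 66465558) had 9 fragments and 0.594 CPM in the p65-null library and 52 fragments and 2.45 CPM in the wild-type library. It was 4.13-fold lower (2.02 to 9.53), or 2.67-fold lower after the correction, with a transcript GC content of 42.1%, the lowest of the members. Its mean level exceeded that of 3.85% of measured genes, so its interval is the widest of the 10 on the log2 scale.

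Bbc3, the gene of PUMA, and Bid lay between 1.5-fold and 2-fold apart in opposite directions. Bbc3 (NM_133234, chromosome 7, 16308398 to 16318334) had 114.5 fragments and 7.56 CPM in the p65-null library and 91 fragments and 4.29 CPM in the wild-type library, a ratio of 1.76 (1.33 to 2.34). After the correction its log2 ratio was 0.25, against 0.82 before it, its transcript having a GC content of 65.2%, the highest of the members. Bid (NM_007544, chromosome 6, 120893119 to 120917062), whose protein is cleaved by caspase-8 and carries death receptor signals to the mitochondrion, had 359.5 fragments and 23.7 CPM in the p65-null library and 773.5 fragments and 36.5 CPM in the wild-type library. Its log2 ratio was -0.62 (-0.81 to -0.44), or -0.75 after the correction. It reached -1.03 with ribosomal protein genes as the scale, which moved the median of all measured genes by -0.41. At a threshold of 1.5-fold, 3 members were higher (Bmf, Bbc3 and Bax) beside 22.2% of measured genes, and 3 were lower (Bcl2, Pmaip1 and Bid) beside 25%.

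Bcl2l11, the gene of BIM, was the BH3-only gene nearest to no difference before the correction, while after it Bbc3 was, at a log2 ratio of 0.25 against 0.31 for Bcl2l11. Bcl2l11 (NM_207680, chromosome 2, 128126038 to 128162547) had 213.5 fragments and 14.1 CPM in the p65-null library and 277.5 fragments and 13.1 CPM in the wild-type library, a ratio of 1.08 whose interval (0.896 to 1.29) holds 1. Scaled to ribosomal protein genes its log2 ratio was -0.30.

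The opposite directions left the sum of the 5 BH3-only genes at 57.2 CPM in the p65-null library and 57.2 CPM in the wild-type library. This is a ratio of 1.00 (0.916 to 1.09), with a different makeup. Per kilobase of transcript the sums were 20.4 FPKM in the p65-null library and 22.7 FPKM in the wild-type library, so they were equal in CPM only. Bad, a BH3-only gene outside the 10 members, is in none of these sums or shares. It was at 49.97 CPM and 34.4 FPKM in the p65-null library. In the wild-type library it was at 27.8 CPM and 19.2 FPKM. Per length it exceeded each of the 5 in both libraries, so the sums and shares describe the 5 members only. Bid made up 53.02% of the summed BH3-only FPKM in the p65-null library and 73.3% in the wild-type library, Bbc3 20.4% and 10.4%, and Bcl2l11 13.7% and 11.4%. Bmf made up 11.9% in the p65-null library and 0.850% in the wild-type library, and Pmaip1 1.07% and 3.96%. In the order of FPKM over all 10 members, Bmf stood in place 8 in the p65-null library and in place 10 in the wild-type library, and Bcl2 in place 9 and place 6. In the p65-null library Bcl2l11 at 2.80 FPKM (2.44 to 3.20) and Bmf at 2.42 (2.07 to 2.82) had overlapping counting intervals, as did Bcl2l11 at 2.60 (2.30 to 2.92) and Bbc3 at 2.37 (1.91 to 2.91) in the wild-type library.

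**Figure D3:**
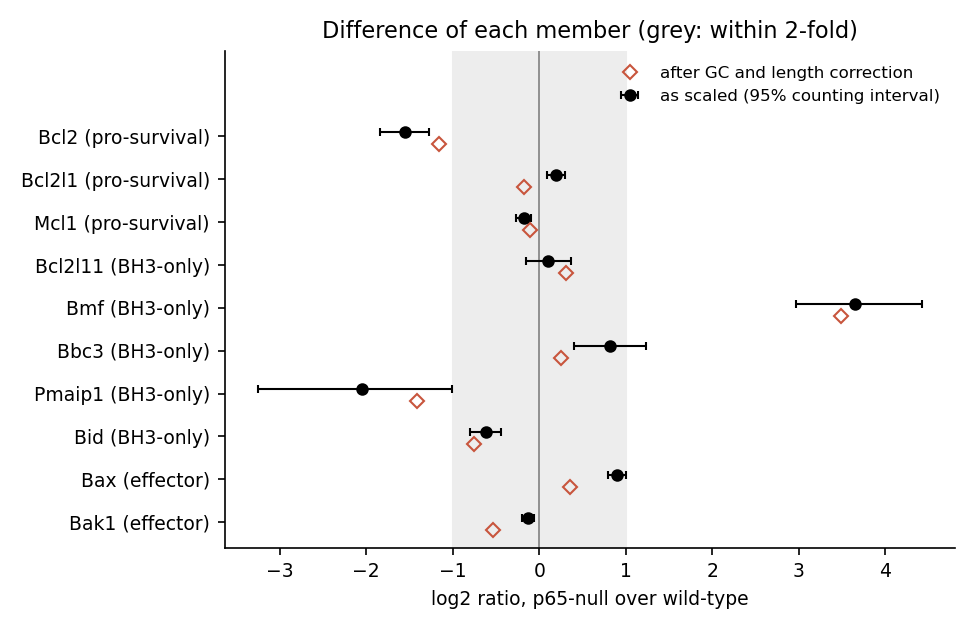
Black points give the log2 ratio, p65-null over wild-type, of each member with its 95% counting interval, open diamonds the same ratio corrected for GC content and length, and the grey band marks 2-fold. Bmf, Bcl2 and Pmaip1 lie outside the band before and after the correction, whereas Bax moves from 0.90 to 0.36 and Bbc3 from 0.82 to 0.25.

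The 2 effector genes differed from each other. Bax (NM_007527, chromosome 7, 45461695 to 45466903) had 1692 fragments and 112 CPM in the p65-null library and 1270.5 fragments and 59.9 CPM in the wild-type library. Its ratio was 1.86 (1.73 to 2.01), just inside 2-fold, and 1.28 after the GC and length correction. Its transcript was the shortest of the 10, at 867 bases, with a GC content of 59.2%. It passed 2-fold, at a log2 ratio of 1.01, only under upper quartile scaling, which moved the median of all measured genes by 0.11. Bak1 (NM_007523, chromosome 17, 27019812 to 27028627) had 2507.5 fragments and 166 CPM in the p65-null library and 3842 fragments and 181 CPM in the wild-type library, a log2 ratio of -0.13 (-0.20 to -0.06), or -0.53 after the correction. The ratio of Bax to Bak1 within a library, which no scaling between libraries can move, was 0.675 in fragments in the p65-null library and 0.331 in the wild-type library, 2.04-fold higher (1.87 to 2.23), and 1.85-fold higher after the correction. Per length, Bax stood above Bak1 in the p65-null library, at 129 against 69.3 FPKM, and below it in the wild-type library, at 69.1 against 75.9 FPKM.

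The p53 targets Bax, Bbc3 and Pmaip1 thus had log2 ratios of 0.90, 0.82 and -2.05, or 0.36, 0.25 and -1.42 after the correction. Trp53, the gene of p53, was at 232 CPM in the p65-null library and 255 CPM in the wild-type library. Outside the family, the p53 target Cdkn1a was at 28.3 CPM in the p65-null library and 3.8 CPM in the wild-type library, 7.46-fold higher (5.87 to 9.58), and Mdm2, also a p53 target, had a ratio of 0.926 (0.844 to 1.02).

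Pro-survival genes were then set against pro-death genes within each library. Summed fragments of the 3 pro-survival genes over those of the 7 pro-death genes came to 0.672 in the p65-null library and 0.822 in the wild-type library, a ratio of 0.818 between them (exact conditional 95% interval 0.773 to 0.866). Per kilobase of transcript the ratios were 0.337 and 0.453. With GC content and length corrected for, the ratio between the libraries was 1.01, so the direction of the difference in these sums rests on the uncorrected values. Against the effectors alone the p65-null ratio was 0.798 of the wild-type one (0.751 to 0.847), or 1.04 after the correction. Against the BH3-only members alone, which leave out Bad, it was 0.917 (0.831 to 1.01). Per kilobase, pro-survival over BH3-only came to 3.60 in the p65-null library and 3.34 in the wild-type library, so its direction depends on the measure.

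Of the 21 pairs of 1 pro-survival and 1 pro-death gene, 8 had a ratio lower by 2-fold or more in p65-null cells, 2 higher by as much, and 11 within 2-fold. After the correction 6 were lower and 2 higher by that margin. The pairs share genes and are not independent. Bcl2 was in 5 of the 8 lower pairs, and the other 3 were Bcl2l1 and Mcl1 over Bmf and Mcl1 over Bax. Bcl2 over Bmf was 0.762 in the p65-null library and 28.0 in the wild-type library, 36.8-fold lower (21.6 to 64.4), or 25.04-fold lower after the correction. Bcl2 over Bax, a pair often quoted as a measure of readiness for apoptosis, was 0.0768 in the p65-null library and 0.419 in the wild-type library, 5.46-fold lower (4.43 to 6.74), or 2.85-fold lower after the correction. Mcl1 over Bax was 1.08 and 2.28, 2.11-fold lower (1.92 to 2.32), which the correction brought to 1.37-fold. The higher pairs were Bcl2l1 and Mcl1 over Pmaip1, at 4.73-fold (2.30 to 10.9) and 3.65-fold (1.78 to 8.45), each resting on the 9 fragments of Pmaip1 in the p65-null library. Mcl1 over Bak1 had a ratio of 0.968, with an interval (0.896 to 1.05) that holds 1.

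**Figure D4:**
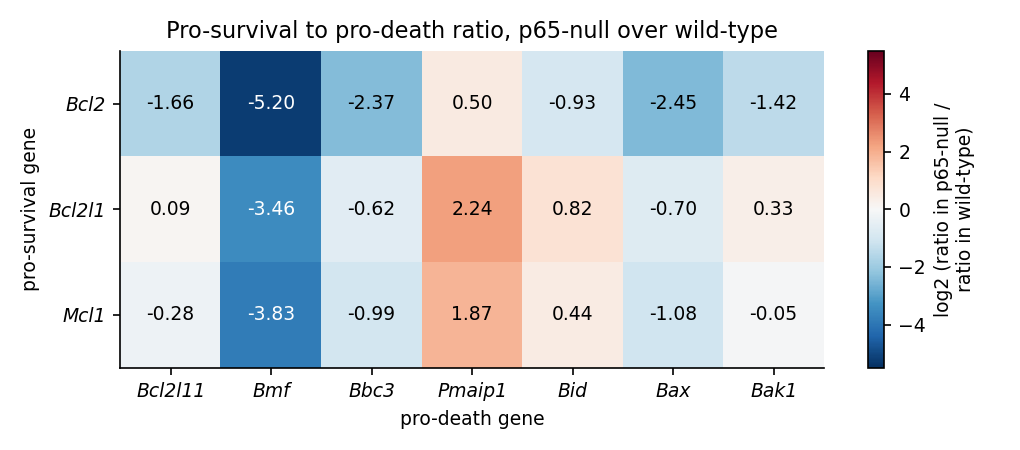
Each cell gives the log2 of the ratio of a pro-survival gene (rows) to a pro-death gene (columns) in the p65-null library over the same ratio in the wild-type library; blue is lower and red higher in the p65-null library. The Bmf column holds the 3 lowest values, from -5.20 to -3.46, and the Pmaip1 column the 2 highest, 2.24 and 1.87.

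Other genes of the pathway were looked up in lists chosen beside the members. Of 15 further BCL2 family genes, 11 were found and 7 measured. Beside 12.2% higher and 13.7% lower of all measured genes, 0 of these 7 were 2-fold or more apart. Their median log2 ratio was -0.05, and it turned to 0.32 after the GC and length correction and to 0.067 under upper quartile scaling. Bad, a BH3-only gene under the control of growth factor kinases, was at 49.97 CPM in the p65-null library and 27.8 CPM in the wild-type library, 1.80-fold higher (1.61 to 2.0). Bcl2l12 was 1.76-fold higher (log2 interval 0.53 to 1.11), and Bcl2l2, a pro-survival gene, had a ratio of 0.969 (0.834 to 1.12). After the correction Bad and Bcl2l12 had log2 ratios of 0.32 and 0.33. Bok, an effector relative, had a ratio of 0.894 (0.802 to 0.995). The BH3-only genes Bik and Hrk were below the expression minimum, with 0 and 1 fragments in the p65-null library and 5.5 and 2 in the wild-type library, and Bcl2a1a, Bcl2a1b, Bcl2a1d and Bcl2l10 were not analysed here.

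Downstream of the mitochondrion, 2 of 13 genes of the apoptosome, released factors and caspases were higher by 2-fold or more in p65-null cells and 0 lower, beside 12.2% higher and 13.7% lower of all measured genes, so the higher count is no result about the list. The median log2 ratio was 0.26, or 0.027 after the correction. Casp9, the initiator caspase of the mitochondrial pathway, was at 14.8 CPM in the p65-null library and 5.0 CPM in the wild-type library, 2.96-fold higher (2.34 to 3.77). Dffa, the inhibitor of the apoptotic nuclease, was at 8.58 CPM in the p65-null library and 4.22 CPM in the wild-type library, 2.03-fold higher (1.54 to 2.69). After the correction Casp9 had a log2 ratio of 1.38 and Dffa, then inside 2-fold, of 0.75. Casp12 had a log2 ratio of 0.56, and only the correction brought it past 2-fold, to 1.77. Casp8, the gene of the caspase that cleaves BID, was at 61.7 CPM in the p65-null library and 36.7 CPM in the wild-type library. It was 1.68-fold higher (1.53 to 1.85), with a log2 ratio of 0.93 after the correction. Casp2 had a log2 ratio of -0.56 (-0.74 to -0.39), or -0.41 after the correction. Apaf1, the apoptosome scaffold, had a ratio of 1.20 (1.10 to 1.31). Cycs, the gene of cytochrome c, was at 80.0 CPM in the p65-null library and 118 CPM in the wild-type library, a log2 ratio of -0.56 that turned to 0.26 after the correction.

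Among 15 partners and turnover factors of the family, 0 were higher by 2-fold or more and 1, Usp9x, was lower (median log2 ratio -0.06). Of all measured genes, 12.2% were higher and 13.7% lower by that margin, so the counts are no result about the list. Usp9x, a deubiquitinase that stabilises MCL1, was at 138 CPM in the p65-null library and 377 CPM in the wild-type library, a log2 ratio of -1.45 (-1.52 to -1.38) that shrank to -0.30 after the correction. Huwe1 and Fbxw7, ubiquitin ligase genes that act on MCL1, had log2 ratios of -0.82 and -0.85, and Btrc, of the same kind, of 0.95. After the correction these were -0.44, -0.55 and 0.78. Dynll1 and Dynll2, the light chains that hold BIM and BMF, had log2 ratios of -0.39 and -0.49. Among 11 measured transcription factor genes known to act on members, 0 were higher by 2-fold or more and 2 were lower, Rela and Rel. Read against the same shares, these counts are no result about the list, and Rela encodes the subunit by which the cultures are labelled. Rel, also an NF-kB gene, was at 1.35 CPM in the p65-null library and 3.49 CPM in the wild-type library (log2 ratio -1.37, or -0.60 after the correction). Foxo3, which induces Bcl2l11, had a ratio of 1.17 (1.06 to 1.30), with a log2 ratio of -0.21 after the correction, and Myc had a log2 ratio of -0.81, or -1.09 after the correction.

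**Figure D5:**
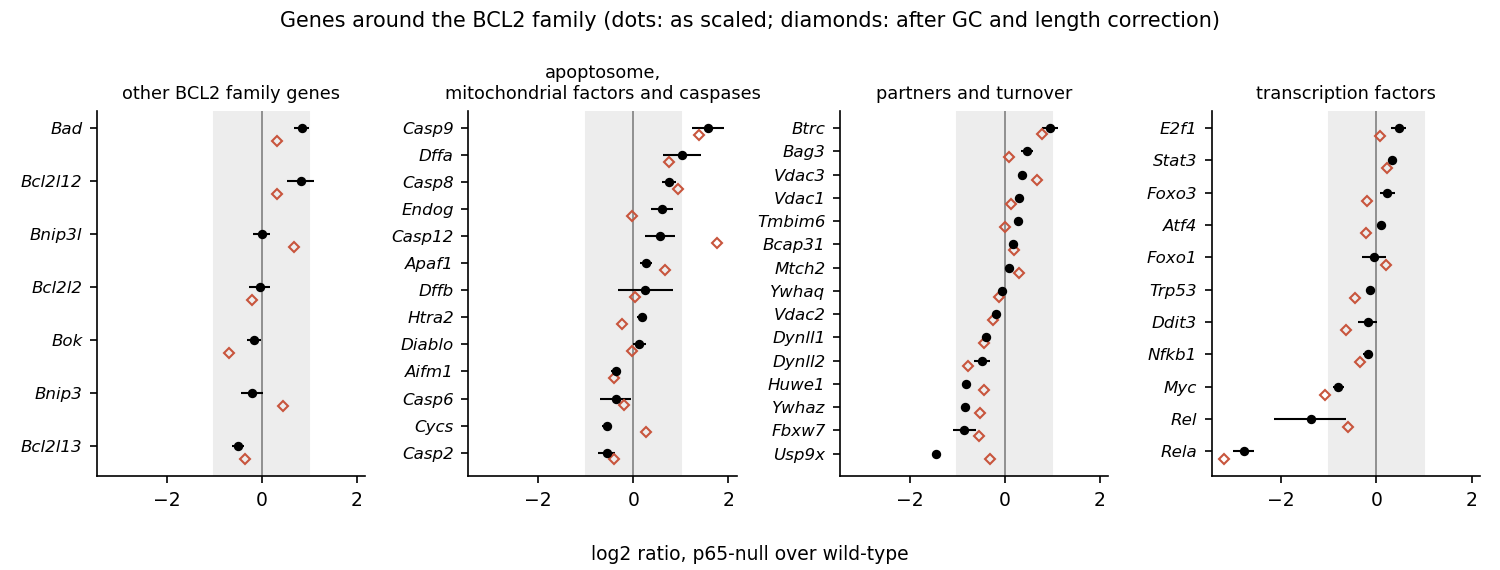
Black points give the log2 ratio, p65-null over wild-type, of the measured genes reported from 4 lists with its 95% counting interval, open diamonds the ratio after the GC and length correction, and the grey bands mark 2-fold. Casp9 lies to the right of the band and Rela to its left before and after the correction, while Usp9x moves from -1.45 to -0.30.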

How the data were processed

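RNA sequencing values of 1 p65-null and 1 wild-type culture were used, grouped by the genotype in the labels. The authors deposited a table named as raw counts, but the deposited values are a scaled signal, since the column totals are alike (18117930 for p65-null and 18117934 for wild-type). Tools listed in the submitters' processing notes are STAR 2.4, HOMER, edgeR and bcl2fastq 2.16, with the build mm10 and no roles. How reads were counted, with or without strand, and against which annotation release cannot be told from the sources used here.

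The step between values was 0.587 in the p65-null and 0.436 in the wild-type column. All 15214 and 15122 values checked were whole multiples of it (100%), within 0.0055 units. Even multiples made up 75.7% and 72.8% of values of 1 to 20 steps, so 2 steps were taken as 1 fragment. The intervals need counts, so the recovered fragments were used, as was planned for the case of a scaled signal. With 1 library a genotype there is no residual degree of freedom, so no count test was run on them and 0 genes were called by one.

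Transcripts were matched to symbols through a RefSeq table of GRCm38.p6 (16739 matched) and GENCODE M21 (87), and 55 had no match. TMM factors (edgeR 4.0.16, R 4.3.3) were 0.981 for p65-null and 1.02 for wild-type. A ratio carries the Clopper-Pearson interval (95%) of the share of fragments from 1 library, and a ratio of ratios the exact conditional interval (scipy 1.17.1). Fragments are not independent molecules, so intervals cover counting error only. A fragment count of 0 was set to 3 for log2 ratios. The expression minimum was a mean of 1 CPM. FPKM uses the length of the matched GENCODE transcript. The GC and length correction used a loess fit on GC content, then another of the residuals on length (span 0.3). The ratio steps were tested on simulated data.

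The members, lists, alternatives and the rule for named genes (all members, Rela, measured list genes) were chosen with earlier results of these data known. Only some measured list genes are named in the results, and these are not always the ones furthest from no difference. Bcl2l13 and Ywhaz, with log2 ratios of -0.50 and -0.84, are not described there. Neither are E2f1 and Stat3, whose log2 intervals start at 0.31 and 0.25, against 0.08 for Foxo3, which is. With 2 libraries, no gene could be named for a pattern like that of a member. Cdkn2a, Xist, Cdkn1a, Mdm2, cell type markers and unmeasured list genes were named after their values were seen. Part of the list of the apoptosome, released factors and caspases is not reported here, and its counts and median are over the genes reported. Overlapping genes may share reads: of those that overlap a member on GRCm38, the ones in the table (Cox4i2, Acoxl and Ggnbp1) had 0.5, 1.5 and 6.5 fragments in the p65-null library and 0, 0 and 9.5 in the wild-type library.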

Additional observations from a re-analysis of the deposited data

How the results depend on the processing

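Bmf, Bcl2 and Pmaip1 stayed past 2-fold in the same direction under total, DESeq2 (1.42.0), upper quartile and ribosomal protein scaling, thinning, a prior count of 2 fragments, and the GC and length correction. These are point values, and no interval was computed for the corrected ratios. After the correction 11.2% of the 12059 genes it covered were higher by 2-fold or more and 9.17% were lower. Under upper quartile scaling 2 members were at least 2-fold higher, Bax joining Bmf, and 1 of 15 partners, Btrc, was. Of the 12135 measured genes, 1724 were higher by that margin under upper quartile scaling. With a threshold of 1.5-fold 3 members were higher and 3 lower, beside 22.2% and 25% of measured genes. With a minimum of 5 CPM, which drops Pmaip1, 1 member was at least 2-fold lower. The share of all genes at that minimum was not computed. With ribosomal scaling 3 members were at least 2-fold lower, Bid being the third. Over all measured genes, ribosomal scaling gave 925 higher and 2998 lower, against 1475 and 1667 with TMM. The summed pro-survival over pro-death ratio, 0.818 of the wild-type value, was 0.745 per kilobase and 1.01 after the GC and length correction; thinning and the omission of Mcl1 left it within its interval. The correction turned the direction of Bcl2l1 alone among the members, and of Cycs, Foxo3 and Mdm2 among the other genes named in the comparisons. It left 0 of 15 partners at least 2-fold lower, beside 9.17% of the genes it covered. Ribosomal scaling, which moves all genes by -0.41, turned Bcl2l1, Bcl2l11, Apaf1, Foxo3 and the neighbour Srp14, and upper quartile scaling Bcl2l2, Mdm2 and the median of the partners (to 0.051). The chromosomal neighbours were not corrected for GC content and length. Whether GC content or a difference in the cells moves these values cannot be told apart with 1 library a genotype. No paired analysis was possible because each genotype has 1 library. Depth limits Pmaip1 and Bmf, with 9 and 19 fragments in the library where each is lower.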

Other observations

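The 3 members past 2-fold were set beside the 5 measured genes on each side of them on their chromosomes. Of all measured genes, 12.2% were higher and 13.7% lower by 2-fold or more. The 10 neighbours of Bmf had a median log2 ratio of 0.47, from -0.79 to 4.21, with 2 higher by 2-fold or more and 0 lower. The higher ones were Gm13986 at 1.41 and Pak6 at 4.21, while the nearest on each side, Srp14 and Bub1b, were at 0.35 and 0.50. The 10 neighbours of Bcl2 had a median of -0.37, from -4.22 for Serpinb2 to 3.0 for Serpinb8, and the nearest, Phlpp1 and Kdsr, were at -0.44 and -0.36. Those of Pmaip1 had a median of -0.14, from -5.98 for Ccbe1 to 2.46 for Gnal, with 2 at least 2-fold higher and 2 lower, and those extremes were the nearest on each side. The nearest genes thus lay within 2-fold beside Bmf and Bcl2 and past it beside Pmaip1. These neighbours were named after their values were seen.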
